A study of Mus musculus with 4 samples.

Results

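The integrated stress response and its amino acid program were examined in the mouse hippocampus through 44 genes, chosen by symbol from the 22609 genes in the count files. The members were 20 cytosolic aminoacyl-tRNA synthetases, 9 enzymes of amino acid and folate-linked carbon synthesis, 5 amino acid transporters and 10 regulators and effectors of the stress response. All 44 were found and all 44 passed the filter on low counts. Hippocampal RNA came from PELP1 FBKO mice, in which the estrogen receptor co-regulator PELP1 is deleted in the forebrain, and from FLOXED mice, each with 2 libraries. All mice were ovariectomized C57BL/6 animals that had been given mini pumps releasing estradiol (E2). Blood flow to the brain was then interrupted for a time (global cerebral ischemia, GCI), and tissue was taken after 24 h of reperfusion. The sources used here do not give the age of the animals, the Cre line behind the deletion or the number of animals behind a library. No group was free of ischemia or of estradiol, so a difference that was present before either cannot be told apart from a response to them.

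When translation factor eIF2 is phosphorylated by a stress kinase, most protein synthesis slows while the transcription factor ATF4 is made in larger amounts. ATF4 pairs with C/EBP proteins on amino acid response elements and turns on genes for amino acid synthesis, uptake and tRNA charging, as well as the death-linked factor CHOP (Ddit3). In the ischemic brain this pathway is known to be engaged soon after blood flow returns, when neurons shut down translation.

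The element that ATF4 and C/EBP proteins bind begins with the letters TGATGNAA. It was searched on both strands in the 250 bases before the annotated start of each gene, in RefSeq promoters of build GRCm38.p6, a newer build than the mm9 of the count files. Of the 44 members 34 had a promoter in that table, and 8 of the 34 (23.5%) held the letters, against 1056 of 27025 genes (3.91%) overall and 1134 of 32851 promoters (3.45%). Among the 10555 tested genes with a promoter there, 261 (2.47%) held them. The members were listed for their place in the ATF4 program, so their larger share is no independent result. The other strand reads TTNCATCA, and the 2 forms do not overlap in any stretch below. The 8 stretches are shown because these letters are what the members with a match share beyond their role in the pathway. Each reads 5′ to 3′ along the gene's own strand, ends at or before the annotated start, and has the matching letters in capitals.
Asns, chr6:7693210-7693262, minus strand: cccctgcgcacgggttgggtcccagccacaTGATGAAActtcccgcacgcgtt
Aars, chr8:111033700-111033767, plus strand: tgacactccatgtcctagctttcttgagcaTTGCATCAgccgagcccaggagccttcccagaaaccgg
Gars, chr6:55037941-55038000, plus strand: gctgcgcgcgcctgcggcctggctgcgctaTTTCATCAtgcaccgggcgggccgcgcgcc
Tars, chr15:11399659-11399703, minus strand: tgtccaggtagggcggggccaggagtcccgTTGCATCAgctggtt
Chac1, chr2:119351019-119351086, plus strand: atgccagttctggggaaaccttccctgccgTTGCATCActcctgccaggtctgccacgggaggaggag
Nupr1, chr7:126625543-126625610, minus strand: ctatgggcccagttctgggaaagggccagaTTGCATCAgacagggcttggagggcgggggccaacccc
Pycr1, chr11:120643814-120643881, minus strand: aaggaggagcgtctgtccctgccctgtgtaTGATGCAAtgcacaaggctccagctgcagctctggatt
Slc7a11, chr3:50443642-50443709, minus strand: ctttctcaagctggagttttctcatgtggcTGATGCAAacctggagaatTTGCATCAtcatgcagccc
Slc7a11 carried the letters in both orientations. A match is a description of the letters, not a measured binding site, and a window without them says nothing about the factor.

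Library totals lay between 17524594 and 22447658 gene reads, and levels below are CPM, each gene's reads relative to its library's total, scaled by the trimmed mean of M values (TMM). Pelp1, the targeted gene, was at 17.95 and 17.3 CPM in PELP1 FBKO, against 26.7 and 26.3 CPM in FLOXED, a log2 fold change of -0.59 (SE 0.149, edgeR adjusted p = 0.130). Markers of neurons were abundant in each library, with a summed level of 13136 and 10524 CPM in PELP1 FBKO and 11462 and 11658 CPM in FLOXED over 10 markers. Markers of other cell types differed between libraries as well. All 12 astrocyte markers (7538 and 9548 CPM summed in PELP1 FBKO, against 5632 and 6765 CPM in FLOXED) and all 10 oligodendrocyte markers (5870 and 6315 CPM in PELP1 FBKO, against 2954 and 3769 CPM in FLOXED) had a positive log2 fold change. The same held for all 10 microglia markers (835 and 1151 CPM in PELP1 FBKO, against 744 and 671 CPM in FLOXED) and all 10 endothelial and mural markers (299 and 276 CPM in PELP1 FBKO, against 153 and 225 CPM in FLOXED). Single libraries stood out in both lists. PELP1 FBKO 2 was the highest for all 10 microglia markers (25.0% of all tested genes), and 5 (50.0%, against 25.4%) were higher without overlap. FLOXED 1 was the lowest for all 10 endothelial and mural markers (33.4% of all tested genes). All 7 CA1 pyramidal neuron markers were on the lower side (573 and 483 CPM summed in PELP1 FBKO, against 733 and 871 CPM in FLOXED). The 7 choroid plexus markers, led by Ttr (transthyretin), summed to 51.9 and 61.8 CPM in PELP1 FBKO and 352 and 98.1 CPM in FLOXED. Of the 6 that were tested, 3 had a positive and 3 a negative log2 fold change, with a median of 0.09. The 8 meningeal markers summed to 177 and 261 CPM in PELP1 FBKO, against 132 and 163 CPM in FLOXED, and 7 of them were positive. The 8 blood cell markers summed to 23.9 and 37.1 CPM in PELP1 FBKO and 14.5 and 15.6 CPM in FLOXED, with the hemoglobin genes Hba-a1 and Hbb-b1 at 0 reads in every library. None of these lists had another marker at 0 reads throughout. In bulk tissue, fewer cells of a type and less RNA per cell cannot be told apart, and the part of cell makeup in the results below was not tested.

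No member passed the adjusted threshold of edgeR, while most had values on the lower side in PELP1 FBKO. Of the 44 members 39 had a negative log2 fold change (PELP1 FBKO minus FLOXED), with a median of -0.43, against a median of 0.00 over all 14978 tested genes. At an unadjusted p under 0.05 in edgeR's quasi-likelihood test 22 members (50.0%) were lower, where 5.55% of all tested genes were, and 1 member, Slc7a11, was higher (2.27%), where 10.1% of all genes were. After Benjamini-Hochberg adjustment over all tested genes 0 members and 0 other genes passed the threshold of 0.05 (0.0% in each direction, where 832 genes were lower and 1509 higher at the unadjusted p). DESeq2, run as an alternative, called 13 members lower and 0 higher at that threshold, against 0.895% of genes lower and 2.2% higher in its own background. At an edgeR adjusted p under 0.10 there were 5 members lower, Cars, Asns, Mthfd2, Aldh18a1 and Cebpb, and 0 higher, against 0.394% of genes lower and 1.56% higher. How many members were lower at an unadjusted p under 0.05 depended on the libraries kept. With 1 library left out no such share of all genes was taken. Slc7a11 was not past that p without PELP1 FBKO 2 or without FLOXED 1.

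**Figure D1:**
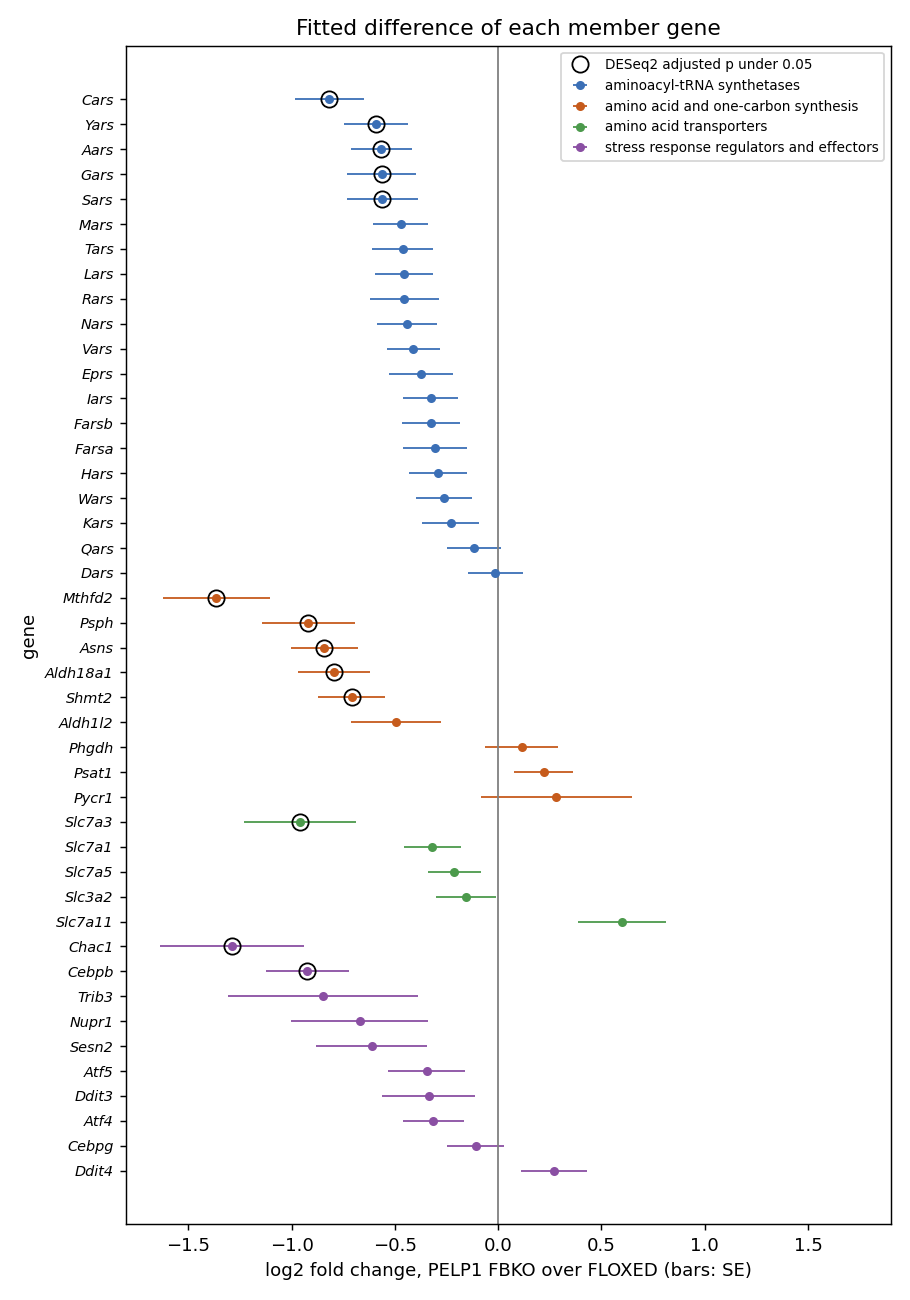
Log2 fold change of each of the 44 members, PELP1 FBKO over FLOXED, with its SE as a bar; colours mark the 4 role groups and rings the 13 members that DESeq2 called. All 20 synthetases lie left of 0, Dars and Qars each by less than its SE, and Slc7a11 stands farthest to the right at 0.60.

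The libraries of the genotypes did not overlap in 32 members on the lower side (72.7%, against 23.0% of all tested genes) and in 3 on the higher side (Psat1, Slc7a11 and Ddit4; 25.4% of all genes). PELP1 FBKO 1 was the lowest of the 4 libraries for 36 members (81.8%), where it was the lowest for 26.1% of all genes. FLOXED 1 was the highest for 33 members (75.0%), against 32.6% of all genes. Centred on each gene's mean over the 4 libraries, the median member lay at -0.32 in PELP1 FBKO 1 and -0.09 in PELP1 FBKO 2, and at 0.31 in FLOXED 1 and 0.13 in FLOXED 2 (log2 scale). The step between the nearest libraries of the genotypes, 0.22, lay between the step within PELP1 FBKO, 0.23, and the step within FLOXED, 0.18. This ordering of libraries was described after the values were seen. In 12 members (27.3%, against 15.9% of all tested genes) the gap between the nearest libraries of the genotypes exceeded the larger gap within a genotype. These were Aars, Cars, Lars, Mars, Nars, Vars, Yars, Asns, Shmt2, Mthfd2, Aldh18a1 and Cebpb. FLOXED 1 also had the lowest astrocyte, oligodendrocyte and endothelial marker sums and the largest share of alignments that were not unique (47.7% of all alignments counted, against 38.5% to 41.5% in the others). The part of these in its high member levels was not tested.

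**Figure D2:**
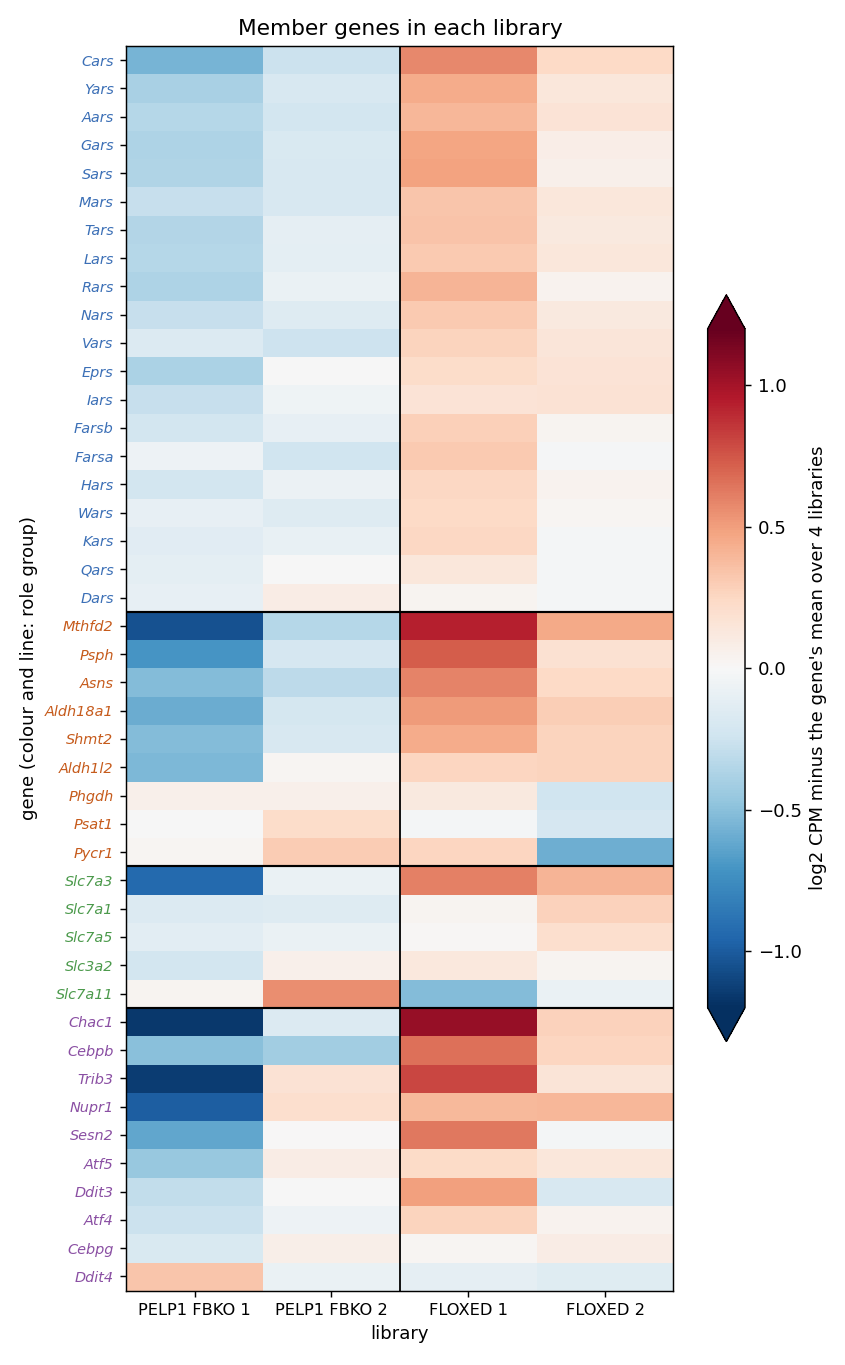
Each of the 44 members (rows, grouped by role and sorted by fold change) in each library (columns), as log2 CPM minus the gene's mean over the 4 libraries. PELP1 FBKO 1 is the lowest library in 36 rows and FLOXED 1 the highest in 33, while Slc7a11 runs the other way.

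Of the transcription factor genes among the regulators, Cebpb alone was lower at an unadjusted p under 0.05. Atf4, the hub of the pathway, was at 168 and 192 CPM in PELP1 FBKO and 241 and 206 CPM in FLOXED. Both PELP1 FBKO libraries lay below both FLOXED libraries, with a log2 fold change of -0.31 (SE 0.147, edgeR unadjusted p = 0.0652). Per kilobase of transcript Atf4 was the most abundant of the 10 regulators and effectors, with a mean of 89.1 RPKM in PELP1 FBKO and 111 RPKM in FLOXED. ATF4 is controlled mainly at translation, which these counts do not measure. Ddit3, which encodes the death-linked factor CHOP, was at 40.4 and 49.3 CPM in PELP1 FBKO, against 69.9 and 43.5 CPM in FLOXED, so the genotypes overlapped. Its log2 fold change was -0.34 (SE 0.224), and without FLOXED 1 it was 0.043. Cebpb, a C/EBP factor that can pair with ATF4, showed the clearest separation of this group, at 8.07 and 8.57 CPM in PELP1 FBKO and 18.02 and 13.6 CPM in FLOXED. The fitted log2 fold change was -0.92 (SE 0.201, edgeR adjusted p = 0.0983, DESeq2 adjusted p = 0.0226, range over alternatives 0.00766 to 0.353). Its relative Cebpg, another ATF4 partner, was at 54.04 and 64.1 CPM in PELP1 FBKO and 62.1 and 65.1 CPM in FLOXED, which overlap. Atf5, a factor translated under the same eIF2 control, was at 34.4 and 50.3 CPM in PELP1 FBKO, against 55.6 and 52.04 CPM in FLOXED, without overlap (log2 fold change -0.35, SE 0.187).

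The effectors of the response spread more widely between libraries. Chac1, which degrades glutathione, was at 6.98 and 13.9 CPM in PELP1 FBKO and 31.99 and 18.9 CPM in FLOXED. Its log2 fold change of -1.29 (SE 0.348, edgeR adjusted p = 0.146, DESeq2 adjusted p = 0.00480, range over alternatives 5.45e-08 to 0.513) was the lowest of the 10, and the libraries of each genotype lay far apart from each other as well. The pseudokinase gene Trib3, a target of ATF4 and CHOP, had few reads and was at 0.907 and 2.25 CPM in PELP1 FBKO, against 3.48 and 2.21 CPM in FLOXED. Sesn2, which restrains the growth kinase mTORC1, was at 15.5 and 23.95 CPM in PELP1 FBKO, against 36.9 and 23.5 CPM in FLOXED. For both genes PELP1 FBKO 2 and FLOXED 2 stood side by side, and only the other pair of libraries set the genotypes apart. The chromatin-linked stress gene Nupr1 was at 6.39 and 14.6 CPM in PELP1 FBKO and 16.6 and 16.7 CPM in FLOXED, low in PELP1 FBKO 1 alone (log2 fold change -0.67, and -0.21 without that library). Ddit4, another brake on mTORC1, was on the higher side in PELP1 FBKO, at 96.6 and 72.6 CPM, against 70.9 and 69.3 CPM in FLOXED (log2 fold change 0.27, SE 0.159). Over the 10 genes Chac1 and Cebpb were lower at an unadjusted p under 0.05 (20.0%, against 5.55% of all tested genes), and the median log2 fold change was -0.48. It was -0.23 without PELP1 FBKO 1, -0.80 without PELP1 FBKO 2 and -0.28 without FLOXED 1.

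The synthesis enzymes had the lowest median of the 4 roles. Mthfd2, the mitochondrial folate enzyme that turns serine-derived carbon units toward nucleotide synthesis, averaged 13.9 ± 4.65 CPM in PELP1 FBKO and 35.7 ± 8.36 CPM in FLOXED (SD, n = 2 each), from 10.6 and 17.1 CPM in the PELP1 FBKO libraries and 41.6 and 29.8 CPM in the FLOXED libraries. Its log2 fold change of -1.36 (SE 0.259) was the lowest of all 44 members, with edgeR adjusted p = 0.0798 (DESeq2 adjusted p = 5.76e-05, range over alternatives 2.54e-07 to 0.311). Asns, which makes asparagine, averaged 124 ± 12.02 CPM in PELP1 FBKO and 222 ± 39.1 CPM in FLOXED, from 115 and 132 CPM in the PELP1 FBKO libraries and 249.6 and 194 CPM in the FLOXED libraries. Averaged over the genotypes it was the most abundant of the 9 enzymes per kilobase, at 61.4 RPKM in PELP1 FBKO and 110.1 RPKM in FLOXED. In PELP1 FBKO alone Psat1 was above it, at 71.9 RPKM, against 61.7 RPKM for Psat1 in FLOXED. Asns holds the element 23 bases before the start, in the promoter stretch shown above. Its log2 fold change was -0.84 (SE 0.163, edgeR adjusted p = 0.0819, DESeq2 adjusted p = 0.000244, range over alternatives 0.000244 to 0.266), and leaving out 1 library kept it between -1.02 and -0.65.

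Serine synthesis was mixed. Its first enzymes, Phgdh and Psat1, which in brain are abundant in astrocytes, had positive log2 fold changes, though that of Phgdh turned to -0.070 without FLOXED 2. Phgdh was at 20.2 and 20.3 CPM in PELP1 FBKO and 21.1 and 16.4 CPM in FLOXED, which overlap, and a pseudogene named Phgdh-ps1 makes its counts uncertain. Psat1 was at 174 and 203 CPM in PELP1 FBKO, against 171 and 151 CPM in FLOXED, just above without overlap (log2 fold change 0.22, SE 0.144). The last enzyme, Psph, went the other way, at 29.7 and 42.2 CPM in PELP1 FBKO and 80.6 and 55.2 CPM in FLOXED. The Psph difference on the log2 scale was -0.92 (SE 0.226, edgeR adjusted p = 0.125, DESeq2 adjusted p = 0.00421, range over alternatives 0.000574 to 0.412). Shmt2, which passes the serine carbon to folate in mitochondria, was lower as well, at 26.1 and 32.8 CPM in PELP1 FBKO, against 51.1 and 45.2 CPM in FLOXED (log2 fold change -0.71, SE 0.162, DESeq2 adjusted p = 0.0149, range over alternatives 0.00927 to 0.331). Aldh1l2, a later mitochondrial folate enzyme, was at 8.30 and 12.2 CPM in PELP1 FBKO, against 14.4 and 14.5 CPM in FLOXED, with most of the gap in PELP1 FBKO 1 (log2 fold change -0.49, SE 0.218). Psph overlaps Cct6a, and Shmt2 overlaps Ndufa4l2, in RefSeq's annotation, which makes their counts less certain. Other members with such overlaps are named with the processing below.

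In the proline branch the first enzyme was lower at an unadjusted p under 0.05 and the last was not. Aldh18a1, which starts proline synthesis from glutamate, was at 22.8 and 29.8 CPM in PELP1 FBKO and 48.99 and 42.2 CPM in FLOXED, without overlap. Its log2 fold change was -0.79 (SE 0.174, edgeR adjusted p = 0.0998, DESeq2 adjusted p = 0.00711, range over alternatives 0.00493 to 0.331). Pycr1, the last step, was scarce at 2.18 and 2.64 CPM in PELP1 FBKO, against 2.57 and 1.43 CPM in FLOXED, and its difference of 0.28 was smaller than its SE of 0.366 and turned to -0.10 without FLOXED 2. Over the 9 enzymes the median log2 fold change was -0.71, and Asns, Psph, Shmt2, Mthfd2 and Aldh18a1 were lower at an unadjusted p under 0.05 (55.6%, against 5.55% of all tested genes), with 0 higher. These 5 were also the enzymes that DESeq2 called lower (55.6%, against 0.895% of genes).

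**Figure D3:**
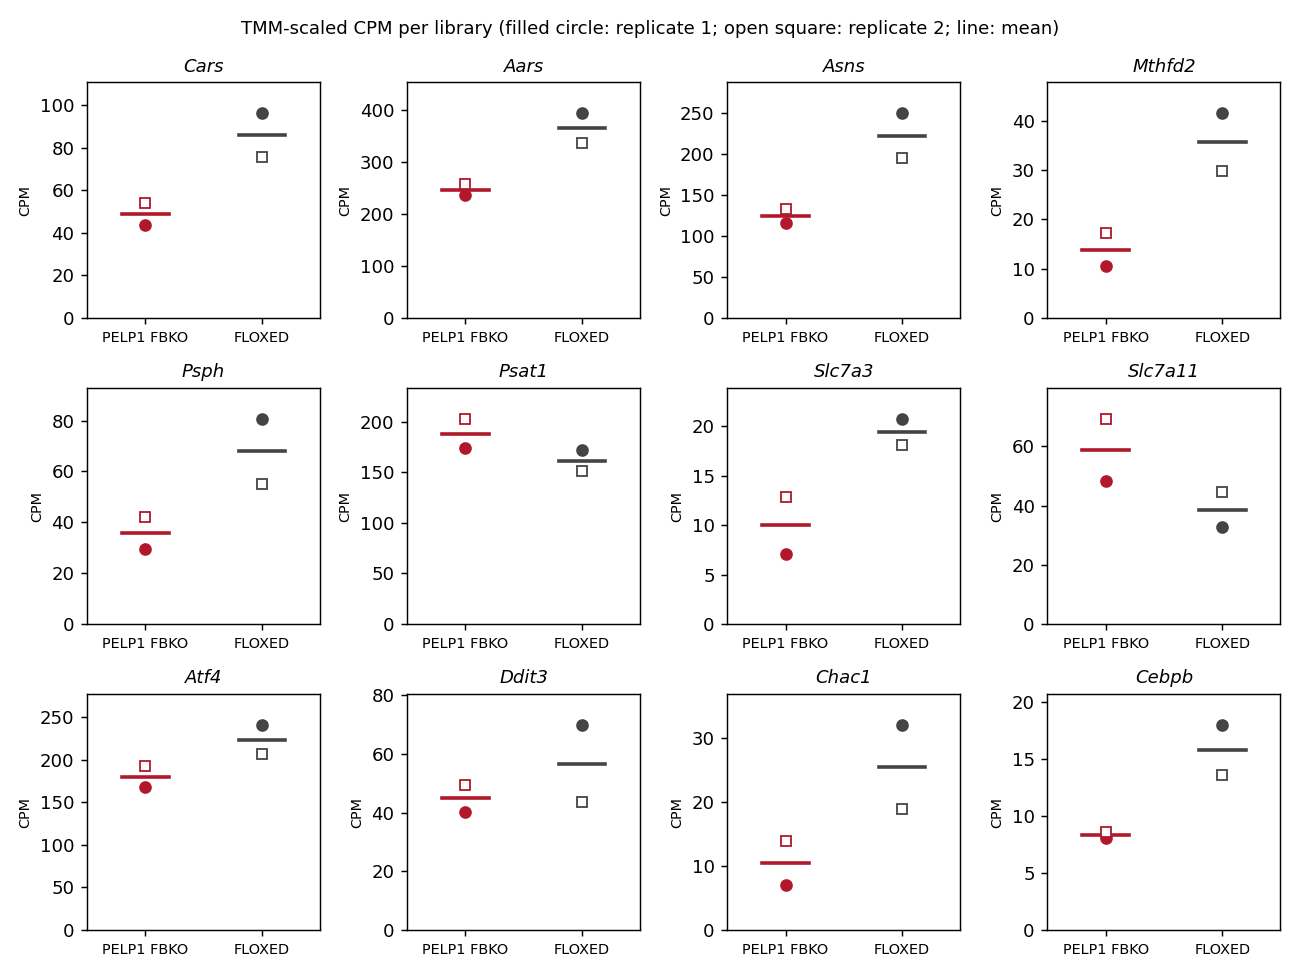
TMM-scaled CPM in each library for 12 members, PELP1 FBKO at the left and FLOXED at the right of each panel; filled circles are replicate 1, open squares replicate 2, and lines group means. The genotypes separate in all panels but that of Ddit3, and PELP1 FBKO is higher for Psat1 and Slc7a11.

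All 20 cytosolic aminoacyl-tRNA synthetases, the enzymes that load amino acids onto their tRNAs, had a negative log2 fold change, that of Dars turning to 0.0038 with library totals and 0.00085 with a filter of 50 reads in each library. Of these 13 were lower at an unadjusted p under 0.05, against 5.55% of all tested genes, and 5 (25.0%) by DESeq2, against 0.895%. In 18 (90.0%) both PELP1 FBKO libraries lay below both FLOXED libraries, against 23.0% of all tested genes. FLOXED 1 was the highest library for 18 of the 20 and PELP1 FBKO 1 the lowest for 17. The median log2 fold change was -0.43, from -0.82 for Cars to -0.01 for Dars. Cars, which charges cysteine, was at 43.8 and 53.9 CPM in PELP1 FBKO and 96.2 and 75.8 CPM in FLOXED. For Cars the log2 fold change was -0.82 (SE 0.168, edgeR adjusted p = 0.0908, DESeq2 adjusted p = 0.00184, range over alternatives 0.00140 to 0.288), and it ranged from -0.99 to -0.64 when 1 library was left out. At the other end Dars, for aspartate, was at 96.4 and 110.0 CPM in PELP1 FBKO and 106 and 102 CPM in FLOXED, which interleave. Qars, for glutamine, was likewise mixed, at 72.8 and 78.7 CPM in PELP1 FBKO, against 86.7 and 77.5 CPM in FLOXED.

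After Cars, the 4 synthetases that DESeq2 called charge tyrosine, alanine, glycine and serine. Yars was at 125 and 143 CPM in PELP1 FBKO and 224 and 180.4 CPM in FLOXED (log2 fold change -0.59, SE 0.155, DESeq2 adjusted p = 0.0195, range over alternatives 0.0193 to 0.392). Aars, whose promoter stretch is shown above, was at 237 and 257 CPM in PELP1 FBKO and 394 and 337 CPM in FLOXED. The alanine enzyme had a log2 fold change of -0.57 (SE 0.146, DESeq2 adjusted p = 0.0121, range over alternatives 0.0121 to 0.404), and the gap between genotypes was wider than that within them. Gars, which also holds the element, was at 163 and 184 CPM in PELP1 FBKO and 292 and 221 CPM in FLOXED (log2 fold change -0.56, SE 0.168, DESeq2 adjusted p = 0.0402, range over alternatives 0.0402 to 0.485). Sars was at 224 and 251 CPM in PELP1 FBKO, against 401 and 300.0 CPM in FLOXED (log2 fold change -0.56, SE 0.173, DESeq2 adjusted p = 0.0408, range over alternatives 0.0408 to 0.525). For Gars and Sars the FLOXED libraries lay far apart, with FLOXED 1 well above FLOXED 2. Without FLOXED 1 their log2 fold changes were -0.35 for Gars and -0.34 for Sars.

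A further 8 synthetases were lower at an unadjusted p under 0.05 but not by DESeq2. Nars, for asparagine, the most abundant per kilobase at 109.9 RPKM in PELP1 FBKO and 149 RPKM in FLOXED, was at 289 and 314 CPM in PELP1 FBKO and 438 and 381 CPM in FLOXED. Mars, for methionine, was at 66.6 and 71.02 CPM in PELP1 FBKO and 102 and 89.1 CPM in FLOXED. Its gene overlaps Ddit3 in RefSeq's annotation, which makes the counts of both less certain. Tars, for threonine, was at 49.1 and 58.1 CPM in PELP1 FBKO and 79.4 and 68.2 CPM in FLOXED. Lars, for leucine, was at 60.9 and 71.02 CPM in PELP1 FBKO and 95.98 and 84.9 CPM in FLOXED. In each of these 4 the genotypes were separate, with log2 fold changes of -0.44 (SE 0.146) for Nars, -0.47 (SE 0.133) for Mars, -0.46 (SE 0.147) for Tars and -0.45 (SE 0.141) for Lars. Vars, for valine, was at 55.2 and 51.9 CPM in PELP1 FBKO and 74.3 and 68.00 CPM in FLOXED. Rars, for arginine, was at 65.4 and 80.3 CPM in PELP1 FBKO and 112 and 87.4 CPM in FLOXED, where PELP1 FBKO 2 came close to FLOXED 2. Eprs, which charges both glutamate and proline, was at 125 and 162 CPM in PELP1 FBKO and 189 and 182 CPM in FLOXED. Iars, for isoleucine, was at 56.7 and 66.4 CPM in PELP1 FBKO and 76.9 and 77.4 CPM in FLOXED. Log2 fold changes of these 4 lay between -0.45 for Rars and -0.33 for Iars, with edgeR adjusted p between 0.189 and 0.302. Rars moved to -0.26 without FLOXED 1, and Eprs to -0.22 without PELP1 FBKO 1.

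The remaining 5 synthetases with separate genotypes, Farsb, Farsa, Hars, Wars and Kars, had log2 fold changes from -0.32 to -0.23 and unadjusted p from 0.0505 to 0.138. Farsa and Farsb encode the subunits of the phenylalanine enzyme and gave -0.31 (SE 0.156) for Farsa and -0.32 (SE 0.141) for Farsb. Hars overlaps Hars2, its mitochondrial relative, and Kars has a pseudogene, Kars-ps1, so their counts are less certain. Of the 20 synthetases 8 (Dars, Eprs, Iars, Kars, Lars, Mars, Qars and Rars) belong to the multisynthetase complex, a cytosolic assembly of these enzymes. Their median log2 fold change was -0.35, with 5 (62.5%, against 5.55% of all tested genes) lower at an unadjusted p under 0.05. DESeq2 called 0 of them lower, against 0.895% of genes. The 12 synthetases outside the complex had a median of -0.45, with 8 (66.7%) lower at that p and 5 (41.7%) called by DESeq2. This split was chosen after the values were seen, and the difference between the sets was not tested.

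Transporters were mixed. Slc7a3, a carrier of cationic amino acids, was at 7.12 and 12.9 CPM in PELP1 FBKO and 20.8 and 18.1 CPM in FLOXED (log2 fold change -0.96, SE 0.270, DESeq2 adjusted p = 0.0344, range over alternatives 6.27e-05 to 0.477). The related carrier Slc7a1 was at 57.5 and 57.9 CPM in PELP1 FBKO and 65.8 and 78.2 CPM in FLOXED, a smaller gap (log2 fold change -0.32, SE 0.137). For both carriers the genotypes were separate. Leaving out 1 library moved Slc7a3 to -0.61 (without PELP1 FBKO 1) or -1.44 (without PELP1 FBKO 2), and Slc7a1 to -0.20 (without FLOXED 2). Slc7a5, the large neutral amino acid carrier of neurons and the blood-brain barrier, was at 92.4 and 94.97 CPM in PELP1 FBKO and 101 and 115 CPM in FLOXED (log2 fold change -0.21, SE 0.130). Slc3a2, the heavy chain that carries Slc7a5 and Slc7a11 to the cell surface and the most abundant of the 5 per kilobase, was at 164 and 199 CPM in PELP1 FBKO and 208 and 196 CPM in FLOXED, which overlap. Slc7a11, the cystine-glutamate exchanger found largely in astrocytes in brain, was the 1 member higher at an unadjusted p under 0.05. It was at 48.2 and 69.3 CPM in PELP1 FBKO, against 32.7 and 44.5 CPM in FLOXED (log2 fold change 0.60, SE 0.213, edgeR adjusted p = 0.238). Its promoter stretch holds the element in both orientations, as none of the other 7 does, and its log2 fold change was positive, as was that of Pycr1, while Asns, Aars, Gars, Tars, Chac1 and Nupr1 were negative. The Pycr1 value, 0.28, was smaller than its SE of 0.366. Without PELP1 FBKO 2 the Slc7a11 value was 0.32, and without FLOXED 1 it was 0.40. Astrocyte marker sums were higher in the same libraries, and their part in the Slc7a11 level was not tested.

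Over the members with the element the median log2 fold change was -0.56, from -1.29 for Chac1 to 0.60 for Slc7a11, and over the 26 matched members without it the median was -0.33. This difference was not tested, and members without a promoter in the table, Cars and Slc7a3 among them, do not enter it. Over the 261 tested genes with the element, out of 10555 with a promoter in the table, the median was -0.02. Mthfd2, Psph, Shmt2, Aldh18a1 and Cebpb, all among the lowest members, had no match in their windows.

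The machinery upstream of ATF4 had a median nearer to 0 than the members, a difference that was not tested. Of 19 genes for eIF2, its kinases, phosphatases and exchange factor, 4 were lower (21.1%, against 5.55% of all tested genes) and 0 higher (against 10.1%) at an unadjusted p under 0.05, with a median log2 fold change of -0.14. Eif2s2, the beta subunit of eIF2, was at 38.7 and 49.8 CPM in PELP1 FBKO and 82.1 and 60.1 CPM in FLOXED (log2 fold change -0.68, SE 0.191, DESeq2 adjusted p = 0.0340, range over alternatives 0.0252 to 0.463), and leaving out 1 library gave -0.90 to -0.44. The alpha subunit gene Eif2s1 had -0.40 (SE 0.139), the exchange factor gene Eif2b2 -0.40 (SE 0.156) and the phosphatase gene Ppp1ca -0.39 (SE 0.162). Ppp1r15a, the stress-induced subunit that directs the phosphatase to eIF2, was at 17.9 and 27.2 CPM in PELP1 FBKO, against 37.5 and 27.3 CPM in FLOXED, all but equal in replicates 2 of the genotypes. The kinase gene Eif2ak3 (PERK), at 33.01 and 33.7 CPM in PELP1 FBKO and 31.4 and 31.8 CPM in FLOXED, gave a log2 fold change of 0.08 (SE 0.136), and Eif2ak4 (GCN2) gave -0.12 (SE 0.141). These 2 kinases were chosen for mention after their values were seen.

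Of 25 tested genes linked to ATF4 outside the members, 5 were lower (20.0%, against 5.55% of all tested genes) and 3 higher (against 10.1% of all tested genes) at an unadjusted p under 0.05, with a median log2 fold change of -0.23. The share on the higher side was near that of all genes. Atf3, a stress-induced factor, varied widely between libraries, at 3.72 and 31.5 CPM in PELP1 FBKO and 73.9 and 23.5 CPM in FLOXED, so that PELP1 FBKO 2 stood above FLOXED 2. Stc2, which encodes stanniocalcin-2, was at 5.62 and 10.7 CPM in PELP1 FBKO and 20.5 and 13.3 CPM in FLOXED (log2 fold change -1.05, SE 0.324, DESeq2 adjusted p = 0.0424, range over alternatives 1.27e-05 to 0.574), and leaving out 1 library gave -1.58 to -0.68. The growth factor gene Vegfa had -0.60 (SE 0.126, DESeq2 adjusted p = 0.0163, range over alternatives 0.00574 to 0.260), while Ndrg1, a gene abundant in oligodendrocytes, had 0.55 (SE 0.156). Fgf21, a hormone gene under ATF4 control, had 2 and 7 reads in PELP1 FBKO and 51 and 16 reads in FLOXED. Gdf15 did not pass the count filter, with 3 and 7 reads in PELP1 FBKO and 21 and 8 reads in FLOXED.

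The mitochondrial synthetases, a separate set of enzymes for organelle translation, gave a median log2 fold change of -0.13 over 17 genes, and 0 were called by DESeq2. Cars2, Ears2 and Tars2 were lower at an unadjusted p under 0.05 (17.6%, against 5.55% of all tested genes) and 0 were higher (against 10.1%). The 3 scaffold genes of the multisynthetase complex gave -0.24 (SE 0.155) for Aimp1, -0.36 (SE 0.152) for Aimp2 and -0.07 (SE 0.132) for Eef1e1. Set beside these, 18 genes of the endoplasmic reticulum unfolded protein response had a median of -0.21, with 5 lower (27.8%, against 5.55% of all tested genes) and 0 higher at an unadjusted p under 0.05 and 0 called by DESeq2. Hspa5 (BiP), the main chaperone of that compartment, was at 334 and 453 CPM in PELP1 FBKO and 545 and 582 CPM in FLOXED (log2 fold change -0.52, SE 0.178). The 20 heat shock genes had a median of -0.48, with 11 lower and 1 higher at that p and 7 called lower by DESeq2, which is 55.0% lower at that p and 35.0% by DESeq2, beside 50.0% and 29.5% of the 44 members. Of all tested genes 5.55% were lower and 10.1% higher at that p, and DESeq2 called 0.895% of genes lower. Hsph1 among the heat shock genes was at 386 and 622 CPM in PELP1 FBKO and 1039.8 and 923 CPM in FLOXED. Differences between these lists and the members were not tested.

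**Figure D4:**
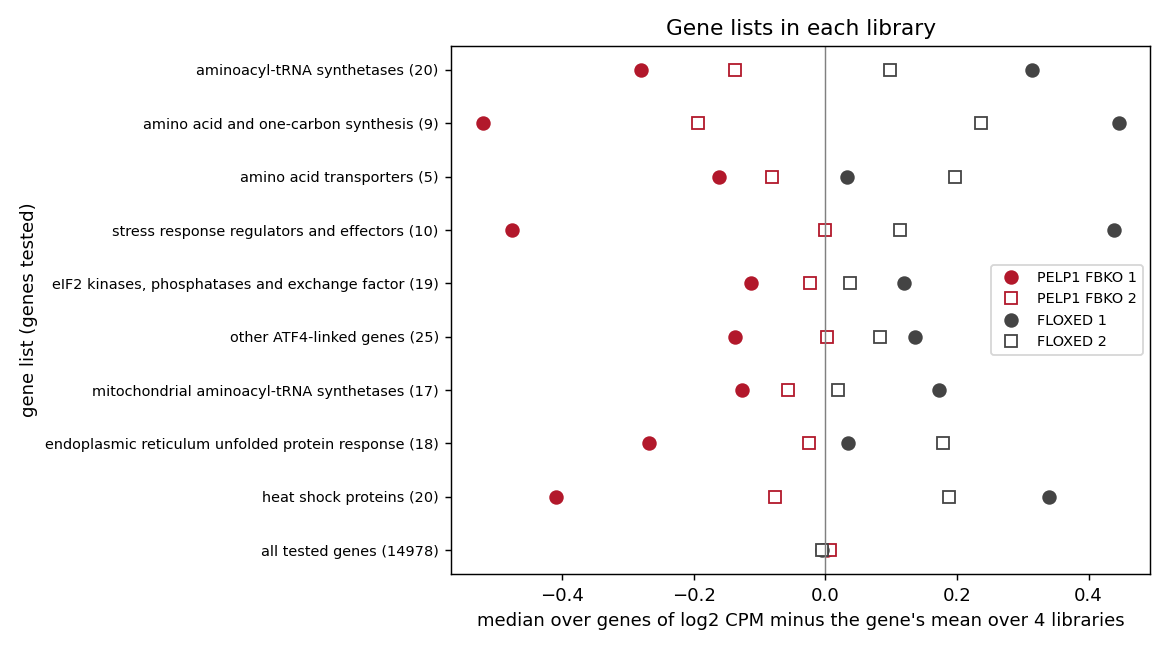
Median over the genes of each list of log2 CPM minus the gene's mean over the 4 libraries, with PELP1 FBKO in red and FLOXED in grey (filled circles replicate 1, open squares replicate 2). Among the 9 gene lists plotted, the synthesis enzymes show the widest gap between the nearest libraries of the genotypes, 0.43, and over all 14978 tested genes the libraries coincide near 0.

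The sign of most members held across methods and libraries. Of the 44 members 40 kept their sign in each of the 12 alternatives that gave a value, the exceptions being Dars, Ddit3, Phgdh and Pycr1. Much of this was set in advance. Of the alternatives 8 keep the same 4 libraries. Leaving out 1 library could hardly turn the sign of the 32 members lower and 3 higher without overlap. No such share over all tested genes is given. The calls, in contrast, depended on the test and on which libraries entered. Mthfd2, Chac1 and Cebpb were past an adjusted p of 0.05 in 7 of 12 alternatives, and Asns, Cars, Psph, Shmt2 and Aldh18a1 in 6 of 12. The number past the threshold changed with the library left out, over all genes as well as over the members, so those counts are not compared. The median over the members was -0.34 without FLOXED 1 and -0.33 without PELP1 FBKO 1. It was -0.54 without PELP1 FBKO 2 and -0.53 without FLOXED 2.

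**Figure D5:**
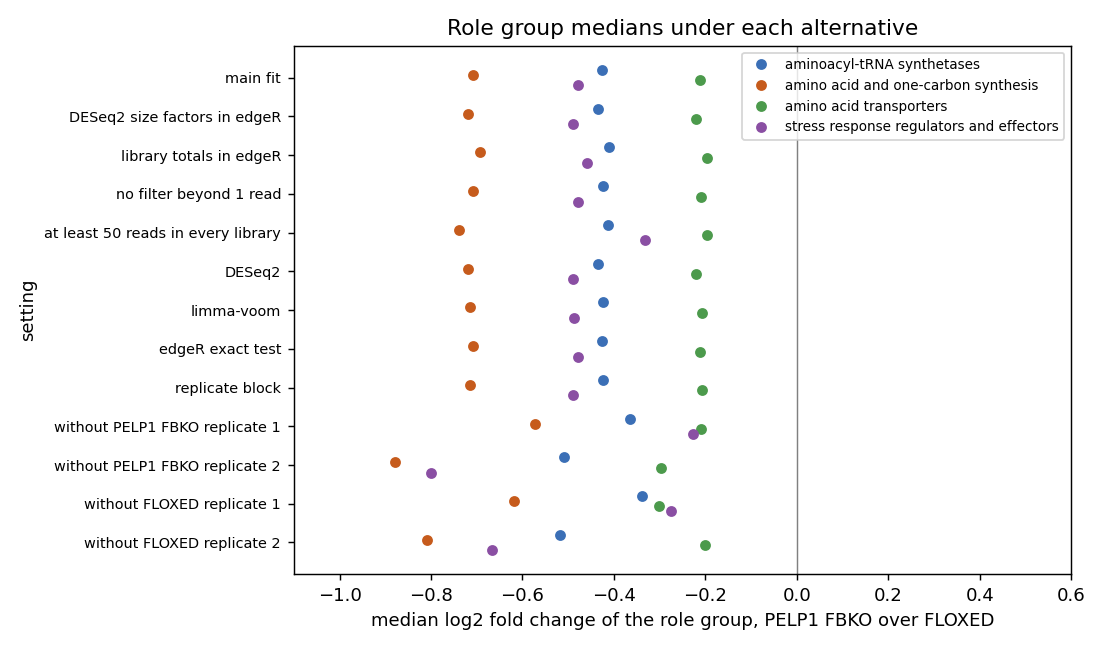
Median log2 fold change (PELP1 FBKO over FLOXED) of each of the 4 role groups under the main fit and 12 alternatives. All medians stay below 0, and those of the stress response regulators and effectors move most, between -0.80 and -0.23.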

How the data were processed

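RNA of 4 hippocampal libraries was sequenced as 50-base single reads, per the labels' protocols. What was deposited is 1 file of raw counts for each library, by gene symbol, which the authors had not normalized. CASAVA 1.8.2, TopHat2 2.0.8b, HTSeq and build mm9 are named, per the submitters' processing notes. The series text names a human build, but the symbols are mouse. The sources used here give no annotation, strand or overlap setting, so how reads of overlapping or antisense genes were counted is not known. Reads that HTSeq marked as ambiguous, 0.972% to 1.05% of the counts outside alignments that were not unique, stayed out of the gene counts. Besides the overlaps named above, RefSeq's annotation has protein-coding ones for Aars (Ddx19b), Farsb (Sgpp2), Wars (Wdr25), Atf5 (Nup62, Il4i1b), Slc7a3 (Snx12), Ddit3 (Mbd6) and Cebpg (Gm45095). HTSeq's summary rows, 48.1% to 56.5% of everything the files count, stayed out of library sizes and tests. Replicates of a genotype differed beyond sampling noise (chi-square per degree of freedom 17.4 and 23.3). The labels do not say whether different animals gave them; a p-value then measures no more than how these libraries spread, which may be technical.

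The main test was edgeR 4.0.16 (R 4.3.3), a quasi-likelihood F test of genotype with TMM and filterByExpr over 14978 genes, with Benjamini-Hochberg adjustment. SEs were derived from its F statistic. DESeq2 1.42.0, limma-voom (limma 3.58.1), the exact test, other scalings and filters, a replicate block and leaving out each library were alternatives. The fits were tested on simulated data. RPKM used the longest GENCODE vM21 transcript of each symbol. All 44 members, role groups, other lists and markers were chosen with earlier results of these data known. The rule for named genes took members at an unadjusted p under 0.05, the extremes and most abundant of each role, and up to 4 genes of each other list, not all of which are given. A gene with 0 reads could reach 0.134 to 0.171 CPM, taking 3 reads as the floor, for counting error only.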

Additional observations from a re-analysis of the deposited data

How the results depend on the processing

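The members past an adjusted p of 0.05 were 0 with DESeq2 size factors in edgeR, with library totals, by limma-voom and with a filter of 50 reads in each library, as in the edgeR quasi-likelihood test of TMM-scaled counts. They were 8 with no filter beyond 1 read, 13 by DESeq2, 13 by edgeR's exact test and 5 at an adjusted p under 0.10. Over all genes the same settings gave 17 (DESeq2 size factors), 23 (library totals), 359 (no filter beyond 1 read), 43 (at least 50 reads), 449 (DESeq2), 759 (exact test) and 293 (adjusted p under 0.10), against 0. With the replicate number as a block 566 genes and 9 members passed. Same-numbered libraries deviated from their group means with a correlation of -0.118 over genes, so the numbers were not taken as pairs; with crossed numbers as the block, added after seeing the data, 314 genes and 8 members passed. Leaving out 1 library in turn gave 0 to 598 genes and 0 to 12 members past the threshold, 13 to 29 members lower and 0 to 1 higher at an unadjusted p under 0.05, and a median of -0.80 to -0.23 for the stress response regulators and effectors, -0.88 to -0.57 for the synthesis enzymes, -0.52 to -0.34 for the synthetases, -0.30 to -0.20 for the transporters and -0.54 to -0.33 for all members. These fits leave 1 library in a genotype, which is assumed to vary like the other. The log2 fold change of Dars turned to 0.0038 with library totals and 0.00085 with the filter of 50 reads; leaving out 1 library gave -0.11 to 0.061 for Dars, -0.65 to 0.043 for Ddit3, -0.070 to 0.30 for Phgdh and -0.10 to 0.75 for Pycr1. Fewer libraries or genes entered in those fits; for the others the cause was not tested. Trib3, Pycr1 and Fgf21 had few reads, so counting error weighs most on their values.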

Other observations

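Lars2, the gene of the mitochondrial leucine enzyme, stood apart from the other mitochondrial synthetases in its CPM, which is not scaled for transcript length. It was at 1495 and 1431 CPM in PELP1 FBKO, against 2872 and 1354 CPM in FLOXED, so that FLOXED 1 alone was high. The gene of that list with the next highest CPM, Iars2, was at 61.7 and 57.3 CPM in PELP1 FBKO and 56.9 and 55.1 CPM in FLOXED. Lars2 was named after its values were seen, and the part of FLOXED 1's larger share of alignments that were not unique was not tested. Of the 17 mitochondrial synthetases, 8 (47.1%) had a gap between the genotypes wider than the larger gap within a genotype, beside 12 of the 44 members (27.3%) and 2386 of all 14978 tested genes (15.9%). These counts pool both directions, and the 12 members were all lower. Of the 17, 7 were lower (41.2%, against 23.0% of all tested genes) and 3 higher (17.6%, against 25.4%) without overlap.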
